A study of Mus musculus with 16 samples.

Results

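The Slc30 genes encode the zinc exporters of mammalian cells. They were followed here in prelimbic cortex (PL) neurons of the mouse that send axons to the ventral tegmental area (VTA), the basolateral amygdala (BLA) or the nucleus accumbens (NAc). The members were 8 listed genes found by symbol in the tables, Slc30a1, Slc30a3, Slc30a4, Slc30a5, Slc30a6, Slc30a7, Slc30a9 and Slc30a10, out of 39017 gene rows and out of 10 Slc30 genes in each table. They were listed with results of these comparisons already known, so every member value below is a description and carries no p-value. The other 2 family genes in the tables, Slc30a2 and Slc30a8, were low in PL and are given for contrast.

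All mice were C57BL/6J, an inbred strain, and carried 2 viruses. AAV-IV-GFPL10, injected in PL, holds a Cre-dependent fusion of green fluorescent protein with a ribosomal protein, and CAV-Cre, a canine adenovirus taken up by axon endings, was injected in VTA, BLA or NAc. Anti-GFP beads then pulled down tagged polysomes (the immunoprecipitate, IP), which are enriched in mRNA under translation in PL neurons that reach the injected target. The Input is total RNA of the surrounding PL. The 16 libraries form 6 groups: 2 PL-VTA IP against 2 PL-VTA Input, 3 PL-BLA IP against 3 PL-BLA Input, and 3 PL-NAc IP against 3 PL-NAc Input. The groups are selected by virus uptake at one target, and the labels do not say whether a tagged neuron also reaches another target. The sources used here give no age or sex and do not say whether a library pools animals, so the errors measure spread between libraries, which may be technical.

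Zinc is kept at very low free levels inside cells, and 2 transporter families move it in opposite directions. Slc30 proteins (ZnT) carry zinc out of the cytosol, across the plasma membrane or into vesicles, the Golgi and other organelles. Slc39 proteins (ZIP) bring it into the cytosol. In the forebrain, Slc30a3 (ZnT3) loads zinc into synaptic vesicles of a subset of glutamatergic neurons, which release it with glutamate.

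The deposited tables held comparisons and no library values, so each gene has a mean normalized count over the libraries of its projection, a log2 fold change of IP over Input and a standard error (SE). Their mean counts summed to 16520414 in PL-VTA, 16347808 in PL-BLA and 15437849 in PL-NAc. Among genes whose mean reached 50, the SE had a median of 0.219 for PL-VTA, 0.129 for PL-BLA and 0.124 for PL-NAc, so PL-VTA resolved only larger changes. The headers do not name the direction. It was read as IP over Input because 20 of 20 glial markers in PL-VTA, 19 of 20 in PL-BLA and 20 of 20 in PL-NAc were negative, as were all 8 mitochondrially encoded mRNAs measured in each. The 6 excitatory markers checked had reads in every table, and their summed level in the IP was 99.1% of Input in PL-VTA, 155% in PL-BLA and 148% in PL-NAc. Single markers were not uniform in PL-VTA, where 0 were called higher and 2 lower, with log2 fold changes from -0.82 to 0.29. In PL-BLA 5 were called higher and 0 lower, and in PL-NAc 6 and 0.

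Slc30a3, the vesicular zinc transporter, was the member whose deposited IP over Input change lay furthest apart between projections. It was low in the PL-VTA IP, at a log2 fold change of -2.07 (SE 0.16) or 23.8% of Input, in the authors' deposited table. In PL-BLA it was 0.50 (SE 0.07) or 141% of Input, and in PL-NAc 0.12 (SE 0.08) or 109% of Input, in the authors' deposited tables. The 95% intervals ran from -2.39 to -1.75 in PL-VTA, from 0.35 to 0.64 in PL-BLA and from -0.03 to 0.27 in PL-NAc, so only the PL-NAc interval includes 0. Set against the median of the excitatory markers, which was 0.06 in PL-VTA, 0.52 in PL-BLA and 0.62 in PL-NAc, Slc30a3 stood at -2.13 in PL-VTA, -0.02 in PL-BLA and -0.50 in PL-NAc. On that scale Slc30a3 was called lower in PL-VTA and in PL-NAc. In PL-BLA it was not called, and its value lay within its SE of 0.

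The mean count and the fold change together imply a level in each fraction. For Slc30a3 they gave 665 normalized counts in the PL-VTA IP against 2798 in its Input, 3698 in the PL-BLA IP against 2621 in its Input, and 2773 in the PL-NAc IP against 2553 in its Input. The 3 Input levels lay close together, and the IP levels did not. The tables were normalized separately, so levels set across them are approximate, and within a table the levels inherit any shrinkage of the fold change.

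**Figure D1:**
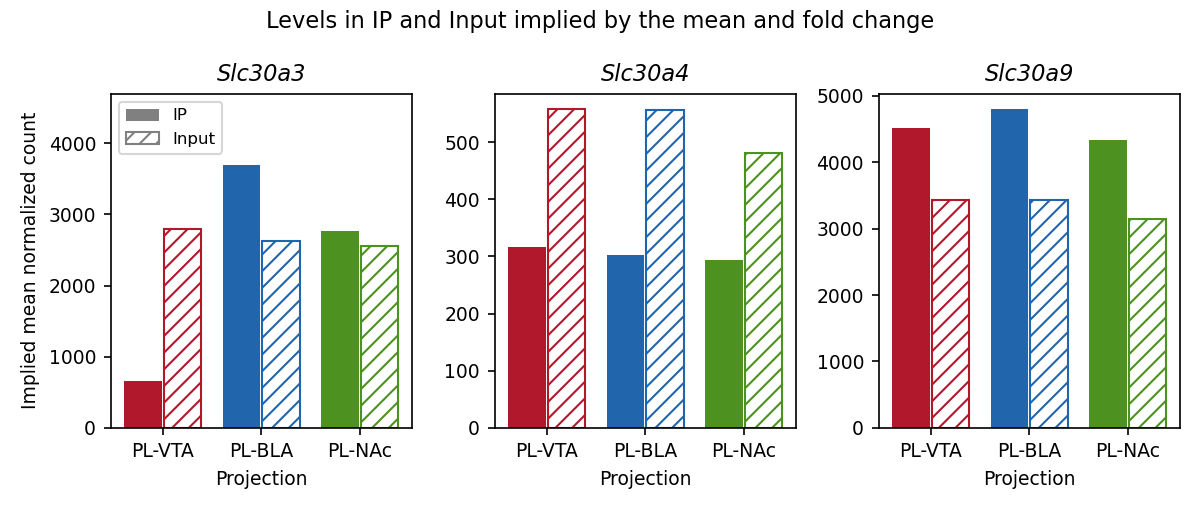
Mean normalized counts in IP (filled) and Input (hatched) implied by the mean and fold change of each table, for Slc30a3, Slc30a4 and Slc30a9 in PL-VTA, PL-BLA and PL-NAc; vertical scales differ between panels and no error is drawn. Slc30a3 stands at 665 in the PL-VTA IP against 2798 in its Input, while its other 2 IP bars are above their Input bars.

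The difference of the Slc30a3 log2 fold change was -2.57 (SE 0.18, 95% interval -2.92 to -2.22) for PL-VTA minus PL-BLA, a 5.94-fold lower IP over Input ratio in PL-VTA. For PL-VTA minus PL-NAc it was -2.19 (SE 0.18, 95% interval -2.54 to -1.84), 4.57-fold lower in PL-VTA. For PL-BLA minus PL-NAc it was 0.38 (SE 0.11, 95% interval 0.17 to 0.59), 1.30-fold higher in PL-BLA. The first 2 differences share the PL-VTA libraries. Among 11937 genes with a mean of at least 50 in all 3 tables, Slc30a3 ranked 5 from the lowest in PL-VTA minus PL-BLA and 9 from the lowest in PL-VTA minus PL-NAc. In the PL-VTA fold change itself it ranked 130 from the lowest, or within the lowest 1.09%.

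Slc30a3 was the 1 member of 8 called different between projections in each pair, at an adjusted p under 0.05 over all genes. The share of all genes called was 3.89% for PL-VTA minus PL-BLA, 2.84% for PL-VTA minus PL-NAc and 1.45% for PL-BLA minus PL-NAc, and nothing is read from the members' count because they were listed with these values known. The other 7 members had differences from -0.22 (Slc30a6, PL-VTA minus PL-NAc, 95% interval -0.83 to 0.39) to 0.27 (Slc30a7, PL-VTA minus PL-NAc, 95% interval -0.61 to 1.14). Every interval of those 7 members includes 0 in the 3 pairs on the deposited scale. With each table set against its excitatory marker median, a setting chosen after seeing the data, the Slc30a3 differences were -2.11, -1.63 and 0.48 for PL-VTA minus PL-BLA, PL-VTA minus PL-NAc and PL-BLA minus PL-NAc, called in each pair. On that scale Slc30a5 was also called, at 0.54 for PL-VTA minus PL-BLA and 0.70 for PL-VTA minus PL-NAc, and Slc30a9 at 0.50 for PL-VTA minus PL-NAc. That made 2 members for PL-VTA minus PL-BLA and 3 for PL-VTA minus PL-NAc. The share of all genes called was not taken on that scale, so nothing is read from these counts. For Slc30a9 the PL-BLA minus PL-NAc interval was narrow, from -0.17 to 0.21, whereas those of Slc30a1 and Slc30a7 allow sizeable differences.

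Markers of cortical layers were read in the same tables. The upper-layer markers Cux1, Cux2 and Rorb summed to 39.4% of Input in the PL-VTA IP, 47.3% in the PL-BLA IP and 46.2% in the PL-NAc IP. In each projection 3 of 3 were lower. Their median log2 fold change was -1.51 in PL-VTA, -0.9 in PL-BLA and -0.9 in PL-NAc. The 6 markers of layers 5 and 6 summed to 325% of Input in the PL-VTA IP, with 3 higher and none lower. In the PL-BLA IP they summed to 88.4% of Input, with 2 higher and 4 lower, and in the PL-NAc IP to 175%, with 2 higher and 2 lower. None of these markers was at 0, and their part in the Slc30a3 values was not tested. In tissue of this kind, fewer cells of a type and less RNA per cell cannot be told apart.

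**Figure D2:**
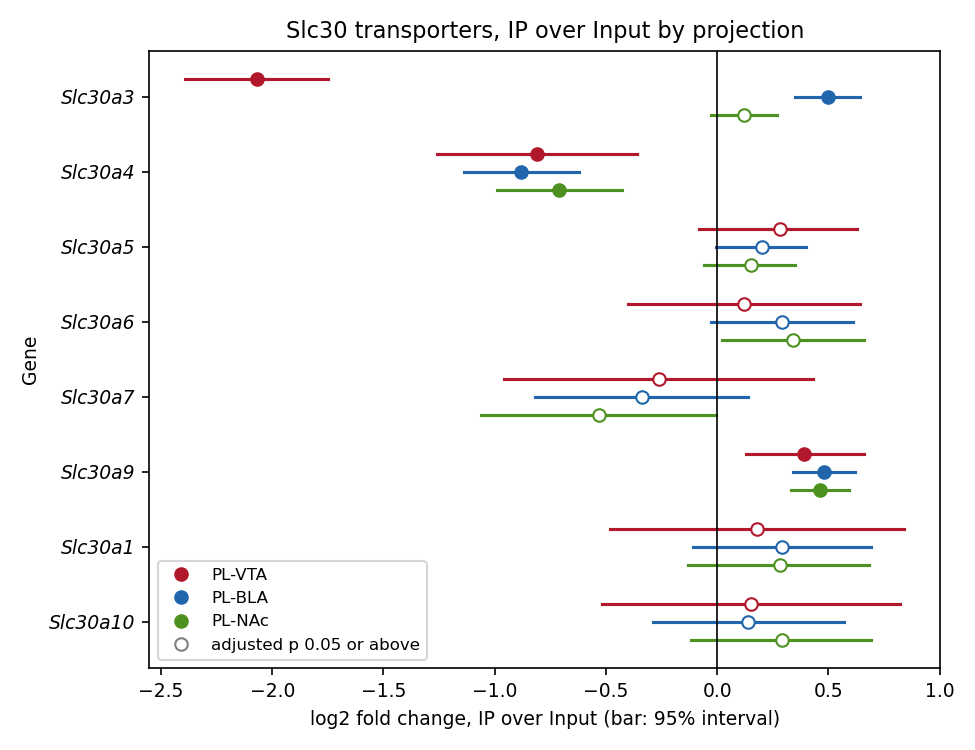
Log2 fold change of IP over Input (horizontal axis) for the 8 Slc30 members in PL-VTA, PL-BLA and PL-NAc; bars are 95% intervals from the deposited SE, and open points had an adjusted p of 0.05 or above. Slc30a3 is at -2.07 in PL-VTA against 0.50 in PL-BLA and 0.12 in PL-NAc, while the interval of the difference between projections includes 0 for each other member; against the excitatory marker median the PL-BLA and PL-NAc values of every member but Slc30a4 and Slc30a7, which are below 0 on both scales, turn below 0.

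Slc30a3 (ENSMUSG00000029151) lies on chromosome 5, from 31086106 to 31108237 on the minus strand (GRCm38, GENCODE M21), and no exon of it overlaps another gene. Slc30a4 (ENSMUSG00000005802), on chromosome 2 from 122681233 to 122702663 on the minus strand, was the member lower in the IP in all 3 projections. The DNA before the starts of both genes is shown because they are the members called lower in an IP. RefSeq gives Slc30a3 a distal and a proximal start, which gene-level values cannot tell apart. Capitals mark matches, on either strand, to TGCACNC or TGCGCNC, the core of the metal response element bound by the zinc-sensing factor Mtf1.
Slc30a3 distal start, chr5:31108245-31108494, minus strand: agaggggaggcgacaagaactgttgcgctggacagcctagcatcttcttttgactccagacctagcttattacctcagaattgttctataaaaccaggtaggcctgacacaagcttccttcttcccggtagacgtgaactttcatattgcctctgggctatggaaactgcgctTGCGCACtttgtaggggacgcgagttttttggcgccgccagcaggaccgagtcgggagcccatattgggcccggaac
Slc30a3 proximal start, chr5:31093616-31093777, minus strand: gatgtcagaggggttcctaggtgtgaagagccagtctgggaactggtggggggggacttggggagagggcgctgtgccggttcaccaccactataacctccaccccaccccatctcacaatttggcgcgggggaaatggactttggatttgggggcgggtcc
Slc30a4, chr2:122702664-122702913, minus strand: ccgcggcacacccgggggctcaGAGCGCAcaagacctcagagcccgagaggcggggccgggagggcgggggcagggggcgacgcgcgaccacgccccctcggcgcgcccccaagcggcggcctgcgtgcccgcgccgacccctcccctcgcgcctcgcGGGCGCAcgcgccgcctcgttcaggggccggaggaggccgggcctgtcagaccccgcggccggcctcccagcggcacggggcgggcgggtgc

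The sequences are those of RefSeq on GRCm38.p6, 5′ to 3′ on the gene's strand and ending before the first annotated exon. In up to 250 bases before each start, all 8 members matched to 9 promoters, of which 5 held at least 1 core, against 21.4% of the 32851 promoters in the table. Slc30a3 had 1 match, 77 bases before its distal start, and none before its proximal start. Slc30a4 had 2, Slc30a1 1, Slc30a5 1 and Slc30a10 3, of which 2 overlap, while Slc30a6, Slc30a7 and Slc30a9 had none. A match is a run of letters and no evidence of binding.

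Slc30a4 (ZnT4), which moves zinc into endosomes and other vesicles and is mutated in lethal milk mice, was lower in the IP of all 3 projections. Its log2 fold change was -0.81 (SE 0.23) in PL-VTA, -0.88 (SE 0.13) in PL-BLA and -0.71 (SE 0.14) in PL-NAc in the authors' deposited tables. That is 56.9%, 54.4% and 61.2% of Input in the same order. The implied levels were 317 in IP against 557 in Input for PL-VTA, 302 against 556 for PL-BLA and 294 against 481 for PL-NAc, so the fractions stood in the same order in every projection. Of 8 astrocyte markers, 8 were lower in the PL-VTA IP, 7 in the PL-BLA IP and 8 in the PL-NAc IP, with summed IP levels at 42.8% of Input in PL-VTA, 52.5% in PL-BLA and 33.1% in PL-NAc. The 6 oligodendrocyte markers stood at 24.9%, 25.9% and 17.5%, and the 6 microglia markers at 30.4%, 33.0% and 18.7%. The 3 oligodendrocyte precursor markers stood at 52.0%, 64.5% and 41.3%, with 2 called lower in each projection and 1 called higher in PL-BLA. Lists outside the glia were low too. The 6 inhibitory markers stood at 56.5%, 55.4% and 47.6%, and the 6 endothelial and mural markers at 48.6%, 34.1% and 31.1%. Of the inhibitory markers, 4 were called lower in PL-VTA, 6 in PL-BLA and 5 in PL-NAc, where 1 was called higher. Of the endothelial and mural markers, 3, 6 and 5 were called lower and 0 higher. The summed levels of the 6 excitatory markers were not low, at 99.1%, 155% and 148%, although 2 of the 6 were called lower in PL-VTA. No marker of these lists was at 0, and their part in the Slc30a4 values was not tested.

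Of the early secretory transporters, none was called in the deposited tables, and 2 were called lower against the excitatory marker median. Slc30a5 and Slc30a6 form a heterodimer in the early secretory pathway that supplies zinc to enzymes such as alkaline phosphatase. Slc30a5 was 0.28 (SE 0.18) in PL-VTA, 0.20 (SE 0.10) in PL-BLA and 0.15 (SE 0.10) in PL-NAc in the authors' deposited tables. Slc30a6 was 0.12 (SE 0.27), 0.29 (SE 0.16) and 0.34 (SE 0.16) in the same order in the authors' deposited tables. Both were above 0 in every projection and neither was called. Against the excitatory marker median both turned, Slc30a5 to -0.32 in PL-BLA and -0.48 in PL-NAc, called lower in each, and Slc30a6 to -0.23 in PL-BLA and -0.28 in PL-NAc, not called. Slc30a7, which serves the same pathway from the Golgi, was -0.26 (SE 0.36), -0.34 (SE 0.25) and -0.53 (SE 0.27) in the authors' deposited tables, below 0 in each and not called. Against the excitatory marker median Slc30a7 stood at -0.86 in PL-BLA and -1.15 in PL-NAc, called lower in each, and at -0.32 in PL-VTA, not called. Of its exonic bases, 16.01% overlap Gm43106 and Gm6649 on the other strand, and the library kit does not mark strand, so its reads are less certain.

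Slc30a9 (ZnT9), which exports zinc from mitochondria, was higher in the IP of all 3 projections. It was 0.39 (SE 0.14) or 131% of Input in PL-VTA, 0.48 (SE 0.07) or 140% in PL-BLA and 0.46 (SE 0.07) or 137% in PL-NAc, in the authors' deposited tables. Set against the excitatory marker median it was -0.04 in PL-BLA, not called, and -0.16 in PL-NAc, called lower. Implied levels were 4512 in IP against 3435 in Input for PL-VTA, 4795 against 3433 for PL-BLA and 4329 against 3149 for PL-NAc. The fold changes of the 3 projections lay within 0.09 of each other. In PL-VTA the call was lost when fold changes were set against either median, both 0.06, of all genes whose mean reached 50 or of the excitatory markers.

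The transporters of the cell surface were not called in any projection. Slc30a1 (ZnT1), the zinc exporter of the plasma membrane and a known Mtf1 target, was 0.18 (SE 0.34) in PL-VTA, 0.29 (SE 0.20) in PL-BLA and 0.28 (SE 0.21) in PL-NAc in the authors' deposited tables. Slc30a10 (ZnT10), which exports manganese, was 0.15 (SE 0.34), 0.14 (SE 0.22) and 0.29 (SE 0.21) in the same order in the authors' deposited tables. Means were between 124.4 and 150.9 for both genes, and the PL-VTA intervals ran from -0.48 to 0.84 for Slc30a1 and from -0.52 to 0.82 for Slc30a10. Neither gene was called against the excitatory marker median either, where Slc30a1 turned to -0.23 in PL-BLA and -0.35 in PL-NAc and Slc30a10 to -0.38 in PL-BLA and -0.34 in PL-NAc. Overlaps with genes on the other strand cover 8.92% of the exonic bases of Slc30a1 and 9.13% of those of Slc30a10.

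All 8 members carried an adjusted p in each table. Called at an adjusted p under 0.05 were 3 members in PL-VTA (1 higher, 2 lower), against 21.5% of all genes (11.0% higher, 10.5% lower). In PL-BLA 3 were called (2 higher, 1 lower), against 41.0% of all genes (20.8% higher, 20.2% lower). In PL-NAc 2 were called (1 higher, 1 lower), against 43.1% of all genes (21.4% higher, 21.7% lower), and nothing is read from these counts. Set against the excitatory marker median the splits were 0 higher and 2 lower, 0 and 3, and 0 and 5 in the same order. Against the median of all genes with a mean of at least 50, PL-VTA had 0 higher and 2 lower. The share of all genes called was not taken after either centring, so nothing is read from these splits. The median member was 0.14 in PL-VTA, 0.24 in PL-BLA and 0.21 in PL-NAc, against 0.02, -0.02 and -0.03 over all genes with an adjusted p.

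Divided by exonic length, the family fell into widely spaced levels. Slc30a3 had the highest mean, 611 normalized counts per kilobase in PL-VTA, 1110 in PL-BLA and 939 in PL-NAc, IP and Input together. Slc30a9 came next with 302 to 332 per kilobase over the 3 tables, and Slc30a5 had 107 to 128. In the PL-VTA IP alone the first 2 change places per kilobase. The implied levels there were 665 for Slc30a3 on 2.834 kilobases of exon and 4512 for Slc30a9 on 12.374 kilobases. The ranges of Slc30a6 (74.5 to 85.7) and Slc30a4 (70.7 to 79.8) overlap, so these neighbours are not separated. Slc30a1 had 24.4 to 28.8 and Slc30a10 21.3 to 22.9. Slc30a7 (6.45 to 9.67) overlaps Slc30a2 (8.05 to 10.1), the vesicle transporter known from the mammary gland, and Slc30a8, the zinc transporter of insulin granules, had 0.173 to 0.436. Slc30a2 was 0.48 (SE 0.44), 0.38 (SE 0.35) and 0.04 (SE 0.36) in PL-VTA, PL-BLA and PL-NAc in the authors' deposited tables and was not called. Slc30a8 had a mean of 0.50 in PL-VTA with an SE of 0.16 in the authors' deposited table, smaller than the 0.44 of the better covered Slc30a2. Of these 2 genes, the one with fewer reads thus had the smaller SE. Whether fold changes were drawn toward 0 by a prior was not tested. If they were, the change of a low gene would be understated.

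The genes most like Slc30a3 were sought among the 11937 genes with a mean of at least 50 in all tables, by the largest absolute difference of log2 fold change over the 3 projections. The closest was Car4, a membrane-bound carbonic anhydrase, within 0.302 of Slc30a3 in every projection. It stood at -1.83 (SE 0.22) in PL-VTA, 0.72 (SE 0.10) in PL-BLA and 0.42 (SE 0.10) in PL-NAc in the authors' deposited tables. Cpne9, a copine, was -1.74 (SE 0.18), 0.33 (SE 0.10) and -0.10 (SE 0.08) in the authors' deposited tables. S100a6, a calcium-binding protein gene, was -1.71 (SE 0.26), 0.33 (SE 0.14) and -0.28 (SE 0.13), and Bok, a BCL-2 family gene, -1.59 (SE 0.19), 0.63 (SE 0.09) and 0.65 (SE 0.15), in the authors' deposited tables. Mcub, a subunit of the mitochondrial calcium uniporter, followed within 0.551, at -1.52 (SE 0.41), 0.30 (SE 0.24) and -0.11 (SE 0.21) in the authors' deposited tables. With 3 projections as points, likeness describes these tables only. For Slc30a10 the same search gave Mpc1, Eml1 and Rundc3b, all within 0.014, which is well under the SE of Slc30a10.

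**Figure D3:**
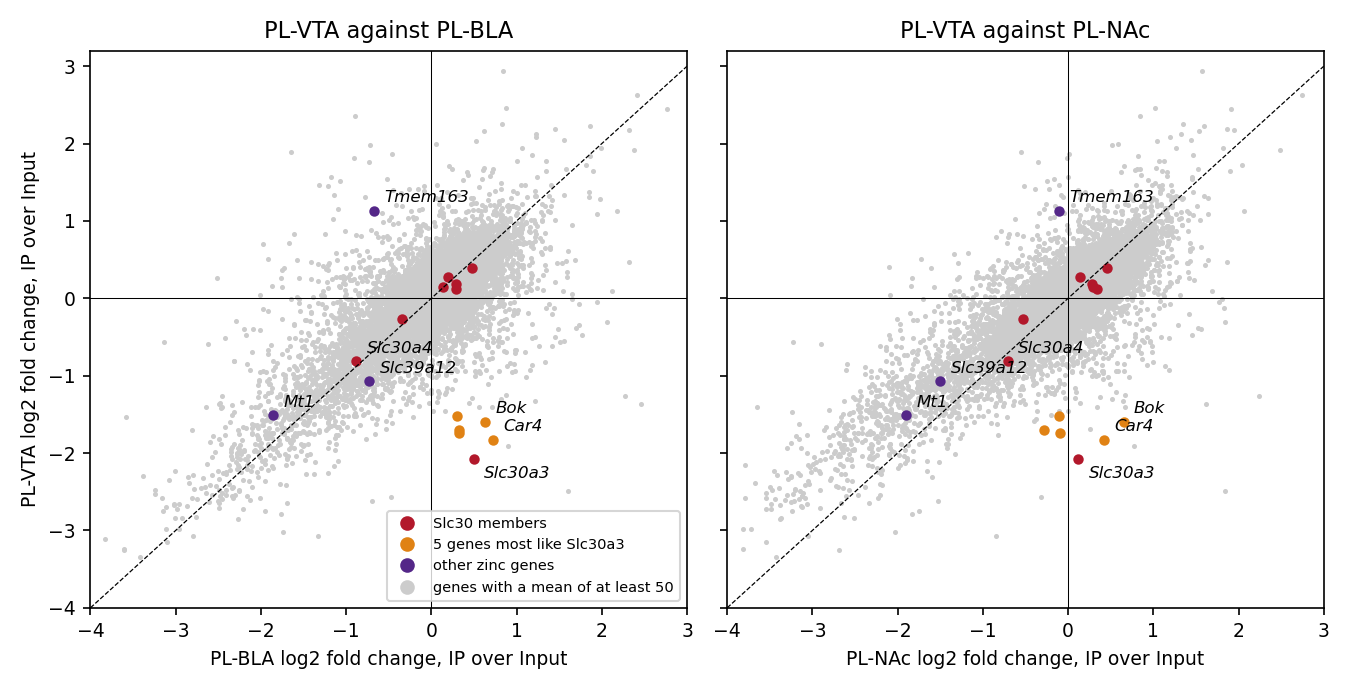
Log2 fold change of IP over Input in PL-VTA (vertical) against PL-BLA (left) and PL-NAc (right) for genes with a mean of at least 50 in all tables (grey; genes outside the drawn range are not shown); the dashed line marks equal values. Slc30a3, at -2.07 in PL-VTA, and the 5 genes most like it lie far below the line, Tmem163 lies above it at 1.13, and the other Slc30 members lie near it.

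The zinc importers were tested in the same tables. They and the other zinc genes below are lists chosen with earlier results of these data known. Of 14 Slc39 genes, 2 rose and 1 fell in the PL-VTA IP among 10 with an adjusted p, 4 rose and 3 fell in the PL-BLA IP among 14, and 4 rose and 4 fell in the PL-NAc IP among 13. Of all genes with an adjusted p, 21.5% were called in PL-VTA, 41.0% in PL-BLA and 43.1% in PL-NAc. Their medians were 0.06, -0.23 and -0.27 in the same order, against 0.02, -0.02 and -0.03 over all genes. Set against the excitatory marker median, the splits were 1 higher and 1 lower in PL-VTA, 2 and 8 in PL-BLA, and 1 and 9 in PL-NAc. Against the median of all genes with a mean of at least 50, PL-VTA had 1 and 1. The shares of all genes above belong to the deposited scale and were not taken after centring, so nothing is read from the centred splits.

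Slc39a10, a plasma membrane importer, rose in all 3 IPs, at 0.41 (SE 0.15, adjusted p 0.0281) in PL-VTA, 1.02 (SE 0.07, adjusted p 5.7e-42) in PL-BLA and 0.66 (SE 0.08, adjusted p 5.5e-17) in PL-NAc in the authors' deposited tables. Its PL-VTA call was lost against either median (adjusted p 0.0789 for all genes, 0.0727 for excitatory markers), and its PL-NAc call against the excitatory marker median (0.677). Its partner Slc39a6 rose in PL-BLA at 1.05 (SE 0.11, adjusted p 8.9e-21) and in PL-NAc at 0.99 (SE 0.11, adjusted p 6.2e-19), and was 0.51 (SE 0.20, adjusted p 0.0527) in PL-VTA, in the authors' deposited tables. Slc39a11 rose in all 3, at 0.69, 0.67 and 0.82 (adjusted p 0.0125, 3.5e-06 and 3.3e-08) in the authors' deposited tables, although against the excitatory marker median it was no longer called in PL-BLA (adjusted p 0.332) and PL-NAc (0.196). Slc39a3 rose in PL-BLA at 0.35 (adjusted p 0.00028) and in PL-NAc at 0.30 (adjusted p 0.00048) in the authors' deposited tables, with the direction turned to -0.17 and -0.32 against the excitatory marker median.

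Slc39a12, an importer known from astrocytes, fell in all 3 IPs, at -1.07 (SE 0.30, adjusted p 0.00334) in PL-VTA, -0.73 (SE 0.20, adjusted p 0.00076) in PL-BLA and -1.50 (SE 0.19, adjusted p 6.1e-14) in PL-NAc in the authors' deposited tables. The Golgi importer Slc39a13 fell in PL-BLA at -0.60 (adjusted p 0.00044) and in PL-NAc at -0.64 (adjusted p 0.00013), and was -0.43 (adjusted p 0.233) in PL-VTA, in the authors' deposited tables. In PL-NAc, Slc39a9 fell at -0.31 (adjusted p 0.0211) and Slc39a2 at -1.02 (adjusted p 0.0391, mean 5.3), in the authors' deposited table. Slc39a8, which imports zinc and manganese, fell in PL-BLA at -1.03 (adjusted p 0.0311) from a mean of 7.1 in the authors' deposited table. The manganese genes Slc39a14, Atp2c1 and Slc11a2 were not called in any projection.

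Metallothioneins bind zinc in the cytosol. Mt1 fell in all 3 IPs, to 35.1% of Input in PL-VTA, 27.7% in PL-BLA and 26.8% in PL-NAc (adjusted p 4.8e-23, 1.4e-102 and 2.2e-34 in the authors' deposited tables). Mt2 fell to 19.6%, 21.6% and 16.6% of Input (adjusted p 1.1e-24, 1.2e-15 and 1.7e-69 in the authors' deposited tables). Mt3, the form abundant in brain, fell in PL-VTA at -0.45 (adjusted p 0.0068) and in PL-BLA at -0.34 (adjusted p 1.3e-05), and was -0.07 (adjusted p 0.786) in PL-NAc, in the authors' deposited tables. Mtf1 was -0.20, -0.25 and -0.04 in PL-VTA, PL-BLA and PL-NAc and not called in the authors' deposited tables. Astrocyte markers, at 33.1% to 52.5% of Input, moved the same way as Mt1, Mt2 and Slc39a12. The summed oligodendrocyte, microglia, inhibitory, and endothelial and mural markers were below Input as well. The part of any of these lists in the values was not tested.

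The vesicle partners of Slc30a3 include AP-3, the adaptor complex that sorts it to synaptic vesicles, and Slc17a7, the glutamate transporter of the same vesicles. Of 7 AP-3 genes, 1 rose and none fell in PL-VTA, 3 rose and 1 fell in PL-BLA, and 2 rose and 2 fell in PL-NAc, against 21.5%, 41.0% and 43.1% of all genes called. The neuronal subunit Ap3b2 rose in all 3, at 0.56 (adjusted p 0.001), 0.69 (adjusted p 8.4e-16) and 0.46 (adjusted p 3.7e-09) in the authors' deposited tables, with the PL-NAc value turned to -0.16 and the PL-BLA call lost (adjusted p 0.058) against the excitatory marker median. Ap3m2, its neuronal partner, rose in PL-BLA at 0.68 (adjusted p 3e-19) and in PL-NAc at 0.61 (adjusted p 2.2e-20) and was 0.08 (adjusted p 0.756) in PL-VTA, in the authors' deposited tables, with the PL-NAc value turned to -0.01 against the excitatory marker median. Ap3d1 rose in PL-BLA at 0.32 (adjusted p 0.00077) in the authors' deposited table, with the direction turned to -0.20 against that median. Ap3m1 fell in PL-BLA at -0.46 (adjusted p 0.00135) and in PL-NAc at -0.55 (adjusted p 1.9e-05), and Ap3b1 in PL-NAc at -0.30 (adjusted p 0.0252), in the authors' deposited tables.

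Slc17a7 rose in PL-BLA at 0.75 (SE 0.06, adjusted p 9.4e-31) and in PL-NAc at 0.62 (SE 0.06, adjusted p 2.3e-25) and was 0.16 (SE 0.12, adjusted p 0.386) in PL-VTA, in the authors' deposited tables, with PL-NAc at -0.0042 against the excitatory marker median, of which it is a part. Slc17a6, a second vesicular glutamate transporter, fell in PL-BLA at -0.59 (adjusted p 0.00439) in the authors' deposited table. Tmem163, a zinc transporter of synaptic vesicles, rose in the PL-VTA IP at 1.13 (SE 0.20, adjusted p 8.8e-07) or 219% of Input and fell in the PL-BLA IP at -0.67 (SE 0.16, adjusted p 8.5e-05), in the authors' deposited tables. In PL-NAc it was -0.11 (SE 0.15, adjusted p 0.609) in the authors' deposited table.

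Among zinc-sensing receptors, the NMDA receptor subunit Grin1 rose in all 3 IPs, at 0.45 (adjusted p 0.0421), 0.59 (adjusted p 4.2e-10) and 0.53 (adjusted p 4.6e-12) in the authors' deposited tables, and against the excitatory marker median it was -0.10 in PL-NAc and not called in PL-BLA (adjusted p 0.467). In PL-VTA that call was lost against the median of all genes (adjusted p 0.0984) or of the excitatory markers (0.092) and with no filter on low values (0.0616). Grin2b fell in PL-BLA at -0.52 (adjusted p 9.4e-07) in the authors' deposited table, and Grin2a, whose channels are the most zinc-sensitive, was not called in any. Over the 23 genes of these other lists, 3 rose and 3 fell in PL-VTA among 20 with an adjusted p, 5 rose and 7 fell in PL-BLA among 21, and 4 rose and 4 fell in PL-NAc among 21. The share of all genes called was 21.5%, 41.0% and 43.1% in these comparisons, and the medians of the 23 genes were -0.04, -0.06 and -0.03. Set against the excitatory marker median, the splits were 2 higher and 16 lower in PL-BLA, and 0 and 18 in PL-NAc. The share of all genes called was not taken on that scale, so nothing is read from these 2 splits.

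**Figure D4:**
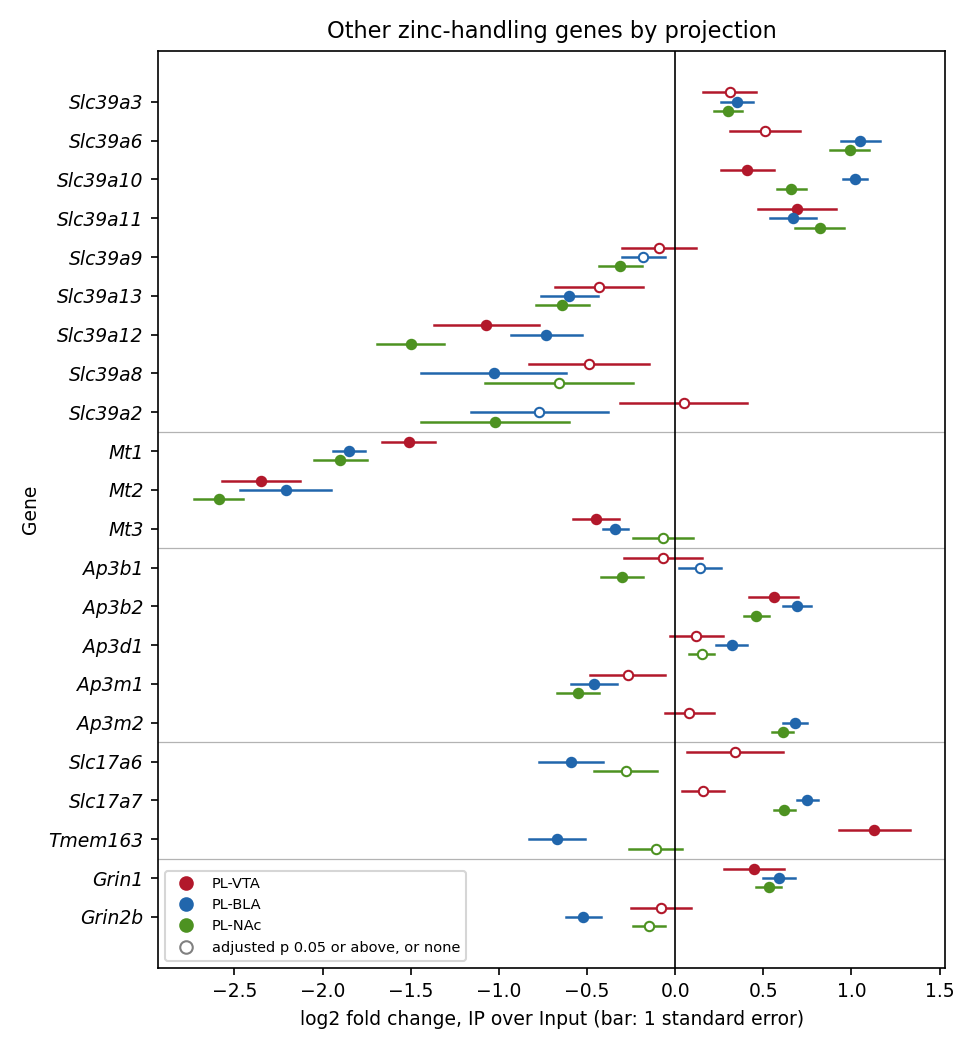
Log2 fold change of IP over Input (horizontal axis) for the 22 Slc39 and other zinc genes called in at least 1 comparison, in PL-VTA, PL-BLA and PL-NAc; bars are 1 SE and open points had an adjusted p of 0.05 or above, or none. Mt1, Mt2 and Slc39a12 are below 0 in all 3 projections, and Tmem163 is at 1.13 in PL-VTA against -0.67 in PL-BLA; against the excitatory marker median Slc39a3 turns below 0 in PL-BLA and PL-NAc, Ap3d1 in PL-BLA, and Ap3b2, Ap3m2, Slc17a7 and Grin1 in PL-NAc.

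The difference between projections was tested for these genes by a two-sided Wald z with Benjamini-Hochberg adjustment over all genes. Tmem163 was higher in PL-VTA than in PL-BLA by 1.81 on the log2 scale (SE 0.26, adjusted p 8.5e-10) and than in PL-NAc by 1.24 (SE 0.25, adjusted p 0.00013), a direction opposite to that of Slc30a3. Slc17a7 was lower in PL-VTA, at -0.59 (SE 0.14, adjusted p 0.00097) against PL-BLA and -0.46 (SE 0.13, adjusted p 0.0293) against PL-NAc, but with each table set against its excitatory marker median these were -0.13 (adjusted p 0.467) and 0.11 (adjusted p 0.486). Ap3m2 was lower in PL-VTA too, at -0.60 (SE 0.15, adjusted p 0.00431) against PL-BLA and -0.53 (SE 0.15, adjusted p 0.0181) against PL-NAc, but -0.14 (adjusted p 0.477) and 0.03 (adjusted p 0.861) on that scale. Slc39a10 was -0.61 (SE 0.17, adjusted p 0.00853) for PL-VTA minus PL-BLA and 0.37 (SE 0.11, adjusted p 0.0393) for PL-BLA minus PL-NAc, and on that scale -0.15 (adjusted p 0.481) and 0.47 (adjusted p 0.00108). Tmem163 stayed called there, at 2.27 (adjusted p 7.41e-16) and 1.80 (adjusted p 1.83e-10). That scale was chosen after seeing the data, and its p-values carry no error for the marker medians. The list genes were chosen with earlier results of these data known, so their p-values are no independent test.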

How the data were processed

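The submitters' processing notes name STAR 2.3, featureCounts and DESeq2, and the builds GRCm38 and mm10. Annotation, filters, strand setting and model were not stated there. Libraries were made with SMARTer Ultra Low and Nextera XT kits, per the labels' protocols. The mean signal per gene is the deposited mean of normalized counts over the libraries of a comparison. The log2 fold change is the deposited value, per the file headers. The SE and the Wald score are the deposited ones, and the score equals the fold change over its SE. The p-values of IP against Input on the deposited scale, raw or adjusted, were likewise deposited by the authors. Those after centring came from a two-sided normal test of the shifted fold change over its SE. They were Benjamini-Hochberg adjusted over the genes with a deposited adjusted p. With other filters on low values, the deposited p-values were adjusted again over the genes kept. Those of differences between projections were computed as given below. The adjusted p is blank below a mean of 8.58 in PL-VTA, 2.39 in PL-BLA and 1.82 in PL-NAc. Rows without a symbol held 0.235%, 0.227% and 0.240% of the mean counts. Library values and depths were not used here.

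A gene was called at an adjusted p under 0.05. Implied IP and Input levels solve the mean and the fold change for groups of equal size. Intervals are 95% normal intervals. Differences between projections used a two-sided Wald z, adjusted over 17671, 17980 and 18211 genes for PL-VTA minus PL-BLA, PL-VTA minus PL-NAc and PL-BLA minus PL-NAc. The calculation was run on simulated data with normal noise of the deposited SE. That run cannot check whether the deposited SE is right or whether fold changes were drawn toward 0. Exon lengths and positions came from GENCODE M21. Python 3.11.15, pandas 2.3.3 and scipy 1.17.1 were used. The members, lists and tests were chosen with earlier results of these data known. Genes named were all members, the 2 other Slc30 genes, list genes called in any comparison (22, at most 25) and the genes most like Slc30a3 (5) and Slc30a10 (3). Stricter calling, other filters on low values and other centring were tried; centring the differences on the excitatory markers was added after seeing the data.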

Additional observations from a re-analysis of the deposited data

Results flagged for a closer look

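In 11 cases the IP over Input change of a named gene differed between projections by the Wald z test of the difference. Slc30a3 was -2.57 for PL-VTA minus PL-BLA, -2.19 for PL-VTA minus PL-NAc and 0.38 for PL-BLA minus PL-NAc, all on the log2 scale. Tmem163, a second vesicular zinc transporter, went the other way, at 1.81 for PL-VTA minus PL-BLA and 1.24 for PL-VTA minus PL-NAc. Slc17a7 was -0.59 and -0.46 and Ap3m2 -0.60 and -0.53 for the same pairs in the same order. The excitatory marker medians of the tables, 0.06, 0.52 and 0.62 in PL-VTA, PL-BLA and PL-NAc, differ by a like amount, and with each table set against its median Slc17a7 was -0.13 and 0.11 and Ap3m2 -0.14 and 0.03, none of them called. Slc39a10 was -0.61 for PL-VTA minus PL-BLA and 0.37 for PL-BLA minus PL-NAc; on that scale the first was -0.15 and not called. The Slc30a3 values are a description, since that gene was listed with them known. The other genes named here come from lists chosen with earlier results of these data known. The comparisons with PL-VTA share its 2 IP and 2 Input libraries.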

How the results depend on the processing

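With calls at an adjusted p under 0.01, 0 members differed for PL-BLA minus PL-NAc, 1 Slc39 gene was called in PL-VTA, 0 Slc39 genes differed for PL-BLA minus PL-NAc and 1 other zinc gene differed for PL-VTA minus PL-NAc. Subtracting the excitatory marker median, a shift of 0.62 in PL-NAc and 0.52 in PL-BLA by construction, gave 5 members and 18 other zinc genes called in PL-NAc. It turned the PL-BLA values of Slc30a3 to -0.02, Slc30a9 to -0.04, Slc39a3 to -0.17 and Ap3d1 to -0.20. In PL-NAc it turned Slc30a9 to -0.16, Slc17a7 to -0.0042, Ap3m2 to -0.01, Ap3b2 to -0.16, Grin1 to -0.10 and Slc39a3 to -0.32. The same subtraction applied to the differences between projections was chosen after seeing the data. For PL-VTA minus PL-BLA it gave 2 members and 7 other zinc genes differing. For PL-VTA minus PL-NAc it gave 3 members, 6 Slc39 genes and 13 other zinc genes. For PL-BLA minus PL-NAc it gave 2 Slc39 genes and 1 other zinc gene. It turned the PL-VTA minus PL-NAc differences of Slc17a7 to 0.11 and Ap3m2 to 0.03. No share of all genes called was taken on the shifted scale, so the counts of genes called or differing there are not read as a result. Of 498 single-gene values over the 5 alternatives, 432 kept their direction and call (members: moved by less than 1 SE). Another 24, all outside the members, lost the call, 30 member values moved by 1 SE or more and 12 called values turned direction. Stricter calling and the filters on low values leave a fold change as it is, so member values could not move there. Lost calls of members are not in this tally. The Slc30a9 call in PL-VTA was lost at an adjusted p under 0.01 and against either median. Slc30a3 stayed lower in PL-VTA in each alternative run, from -2.14 to -2.07. No paired analysis was possible because the tables hold comparisons and no library values, and for the same reason no library could be left out. PL-VTA rests on 2 libraries a group, which limits what it can detect.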
